A study of Homo sapiens with 6 samples.

Results

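The 10 genes described here encode the human machinery that detects DNA out of place and assembles inflammasomes: CGAS, TMEM173 (the older symbol of STING1), TBK1, IRF3, IFI16, PYCARD, CASP1, CASP4, NLRP1 and GSDMD. They were picked by symbol from the 58735 genes of the expression table, and all 10 of 10 were found, each on 1 row. RNA-seq was made from SZ95 cells in 6 libraries; SZ95 is an immortalised line of human sebaceous gland origin. Of these, 3 were cells given a plasmid that overexpresses TRPV3, a calcium-permeable cation channel, and 3 were cells given a mock plasmid, all at 24 h per the labels. The labels give the genotype as TRPV3 overexpression in the TRPV3 cells and WT in the mock cells. Both received plasmid DNA, so neither group shows SZ95 cells without transfection. The replicates are biological per the series' design text, and all come from 1 cell line. No source used here names the promoter that drives TRPV3.

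In the pathway as it is generally known, cGAS binds double-stranded DNA in the cytosol and makes a cyclic dinucleotide, cGAMP, which binds STING on the endoplasmic reticulum. STING then brings the kinase TBK1 to the transcription factor IRF3, and IRF3 switches on interferon genes. Inflammasomes are a separate arm: a sensor such as NLRP1, the main sensor of human keratinocytes, nucleates the adapter ASC (gene PYCARD), which recruits and activates caspase 1. Caspase 1 matures interleukin 1 beta and interleukin 18, caspase 4 responds to bacterial lipopolysaccharide in the cytosol, and both cut gasdermin D (gene GSDMD), whose released part forms pores in the plasma membrane.

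None of the 10 genes passed the test across all genes, but the group was not uniform. CGAS, TMEM173, IFI16, CASP1 and CASP4 were higher in every TRPV3 library than in every mock library, with ratios of means between 1.13 and 1.36. IRF3, PYCARD and GSDMD were high in TRPV3 replicate 1 alone. TBK1 and NLRP1 had lower means with TRPV3, and for NLRP1 that too rested on TRPV3 replicate 1. Levels below are FPKM (fragments per kilobase, scaled by a divisor for each library). The divisor followed a size factor, the median over genes of the library's ratio to the geometric mean over libraries, and not total reads. It was 17.6 M for TRPV3 replicate 1, with 18.4 M reads, and 18.2 M for mock replicate 3, with 17.4 M reads. Fold changes are fitted differences of log2(FPKM + 1), TRPV3 over mock, which understate changes of low genes. The 12177 genes whose mean over the 6 libraries reached 1 FPKM were tested with limma, and those below an adjusted p of 0.05 are said to be called. Whole reads could be recovered from the FPKM and totalled between 17.4 and 18.4 M in the TRPV3 libraries and between 16.0 and 17.5 M in the mock libraries. In bulk RNA such as this, fewer cells that express a gene and less of its RNA per cell cannot be told apart.

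Some facts of the whole series bear on all values below. TRPV3 had 92523 to 126249 reads in the TRPV3 libraries, against 57 to 75 in the mock libraries, in accord with the labels. TRPV3 replicate 1 stood apart: it held the highest of the 6 values in 40.9% of tested genes and the lowest in 36.0%, and its deviation from the other TRPV3 libraries fell with gene length (Spearman's rho = -0.53 across 12177 genes of these libraries, a description only). Mock replicate 3 had at least 1 read in 34467 genes, against 22311 to 23072 in the other libraries. Of 12 sebocyte markers 9 passed the filter on low values, led by the keratin gene KRT7 at 500 to 655 FPKM in the TRPV3 libraries and 502 to 531 FPKM in the mock libraries, while the wax synthase gene AWAT2 had no read and the melanocortin receptor gene MC5R had at most 1 read in a library. Of 10 immune cell markers 1, CD14, passed the filter; the list summed to between 1.28 and 1.82 FPKM in the TRPV3 libraries and between 1.73 and 2.24 FPKM in the mock libraries, and PTPRC, the pan-leukocyte marker CD45, had no read in any TRPV3 library and 8 in mock replicate 3. The sebocyte list summed to between 865 and 941 FPKM in the TRPV3 libraries and between 844 and 885 FPKM in the mock libraries. Of 8 fibroblast and endothelial markers 2 passed the filter, and that list summed to between 3.50 and 3.53 FPKM in the TRPV3 libraries and between 3.48 and 4.25 FPKM in the mock libraries. The part of these marker levels in the results was not tested.

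**Figure D1:**
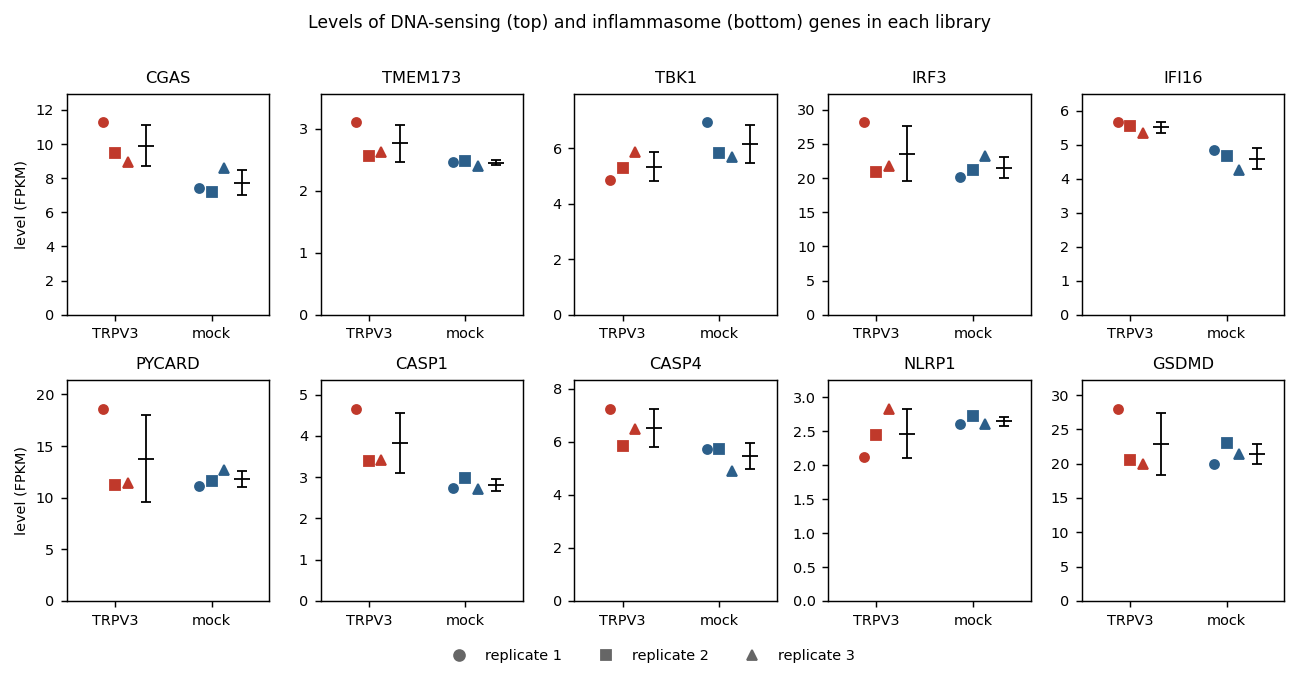
Level of each of the 10 genes in FPKM (vertical axes, from 0) in the 3 TRPV3 libraries (red, left) and the 3 mock libraries (blue, right); the shape gives the replicate number, and the black mark and bar give the mean and SD of the group. CGAS, TMEM173, IFI16, CASP1 and CASP4 have no overlap between groups, and TRPV3 replicate 1 (red circle) is the highest library in 8 of the 10 panels.

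CGAS (ENSG00000164430, chromosome 6, 73413515 to 73452276, minus strand, hg38) encodes cGAS itself, the enzyme that starts the relay. Its levels were 11.3, 9.48 and 8.96 FPKM in TRPV3 replicates 1 to 3, against 7.44, 7.18 and 8.57 FPKM in mock replicates 1 to 3. All TRPV3 libraries lay above all mock libraries, with mock replicate 3 closest to them. The mean was 9.90 ± 1.21 FPKM with TRPV3 and 7.73 ± 0.741 FPKM with mock (SD, n = 3 each), or 0.32 in log2 fold change (95% interval 0.06 to 0.57, SE 0.11, limma adjusted p = 0.755). These levels rest on 651 to 826 reads per TRPV3 library and 484 to 649 reads per mock library. CGAS ranked 218 of the 12177 genes by p. It shares 180 exonic bases with DDX43 on the opposite strand, a gene with 0 to 8 reads per library.

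TMEM173 (ENSG00000184584, chromosome 5, 139475534 to 139482935, minus strand) encodes STING, the receptor of cGAMP. It was the lowest of the 10 genes in the mock libraries, at 3.11, 2.57 and 2.63 FPKM in TRPV3 replicates 1 to 3, against 2.47, 2.48 and 2.41 FPKM in mock replicates 1 to 3. The groups did not overlap, but the margin between the lowest TRPV3 library and the highest mock library was small. Its log2 fold change was 0.12 (95% interval -0.09 to 0.33, SE 0.09, limma adjusted p = 0.755), and 0.06 without TRPV3 replicate 1.

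TBK1 (ENSG00000183735, chromosome 12, 64451880 to 64502108, plus strand) encodes the kinase that phosphorylates IRF3. It had 4.84, 5.30 and 5.88 FPKM in TRPV3 replicates 1 to 3, against 6.93, 5.82 and 5.68 FPKM in mock replicates 1 to 3. TRPV3 replicate 3 lay within the mock range, and mock replicate 1 was the highest library. The fitted log2 fold change was -0.17 (95% interval -0.41 to 0.07, SE 0.10, limma adjusted p = 0.755), and it was -0.09 without mock replicate 1 and -0.11 without TRPV3 replicate 1. TBK1 shares 702 exonic bases, 14.7% of its length, with AC135279.3 on the opposite strand, a gene with 0 to 7 reads per library.

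IRF3 (ENSG00000126456, chromosome 19, 49659569 to 49665875, minus strand) encodes the transcription factor at the end of the relay. Its levels were 28.2, 20.9 and 21.7 FPKM in TRPV3 replicates 1 to 3, against 20.2, 21.2 and 23.2 FPKM in mock replicates 1 to 3. TRPV3 replicate 1 was above all others and the remaining TRPV3 libraries lay within the mock range. On the log2 scale the fold change was 0.12 (95% interval -0.18 to 0.41, SE 0.12, limma adjusted p = 0.764) and -0.01 without TRPV3 replicate 1. IRF3 shares 734 exonic bases, 19.3% of its length, with BCL2L12 on the opposite strand, a gene with 688 to 1195 reads per library. BCL2L12 was at 30.6, 20.02 and 19.3 FPKM in TRPV3 replicates 1 to 3, against 18.2, 19.1 and 23.6 FPKM in mock replicates 1 to 3, so it too was highest in TRPV3 replicate 1. The strand setting of the read counting is not known, so reads in the shared bases cannot be divided between these genes with certainty.

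IFI16 (ENSG00000163565, chromosome 1, 158999968 to 159055155, plus strand) encodes a DNA-binding protein of the PYHIN family, named for its induction by interferon gamma, that senses DNA in the nucleus and cytosol. It had 5.65, 5.54 and 5.33 FPKM in TRPV3 replicates 1 to 3, against 4.85, 4.68 and 4.24 FPKM in mock replicates 1 to 3. Its TRPV3 libraries lay close together, and TRPV3 replicate 1 deviated from the other TRPV3 libraries by 0.05 on the log2 scale, the smallest such deviation among the 10 genes. The mean was 5.51 ± 0.162 FPKM with TRPV3 and 4.59 ± 0.315 FPKM with mock (SD, n = 3 each). The log2 fold change was 0.22 (95% interval 0.04 to 0.40, SE 0.08, limma adjusted p = 0.755) with all libraries and 0.21 (SE 0.07) without TRPV3 replicate 1.

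NLRP1 (ENSG00000091592, chromosome 17, 5499427 to 5619424, minus strand), the inflammasome sensor, was at 2.12, 2.45 and 2.83 FPKM in TRPV3 replicates 1 to 3, against 2.60, 2.73 and 2.61 FPKM in mock replicates 1 to 3. The TRPV3 libraries spread on both sides of the narrow mock range. NLRP1 had a log2 fold change of -0.08 (95% interval -0.31 to 0.16, SE 0.10, limma adjusted p = 0.792) with all libraries and -0.00244 without TRPV3 replicate 1. NLRP1 is the longest of the 10 genes at 12808 exonic bases, and its fold change was 0.04 with the trend of each library with gene length removed.

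PYCARD (ENSG00000103490, chromosome 16, 31201485 to 31203450, minus strand) encodes the adapter ASC. It had 18.6, 11.3 and 11.5 FPKM in TRPV3 replicates 1 to 3, against 11.1, 11.6 and 12.7 FPKM in mock replicates 1 to 3. TRPV3 replicate 1 was far above the other 5 libraries, and TRPV3 replicates 2 and 3 lay within the mock range. Its log2 fold change of 0.17 (95% interval -0.26 to 0.61, SE 0.18, limma adjusted p = 0.764) was -0.05 (95% interval -0.20 to 0.10) without TRPV3 replicate 1. PYCARD is the shortest of the 10 genes at 1661 exonic bases, of which 991 are shared with PYCARD-AS1 on the opposite strand, listed with no read in any library.

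CASP1 (ENSG00000137752, chromosome 11, 105025443 to 105035250, minus strand) encodes caspase 1, the protease at the core of the inflammasome. It had 4.66, 3.38 and 3.42 FPKM in TRPV3 replicates 1 to 3, against 2.74, 2.98 and 2.70 FPKM in mock replicates 1 to 3. The mean was 3.82 ± 0.727 FPKM with TRPV3 and 2.81 ± 0.152 FPKM with mock (SD, n = 3 each), a ratio of 1.36, the highest among the 10 genes. The groups did not overlap. The log2 fold change was 0.33 (95% interval 0.05 to 0.61, SE 0.12, limma adjusted p = 0.755), and 0.21 (SE 0.07) without TRPV3 replicate 1. The level rests on 221 to 304 reads per TRPV3 library and 178 to 182 reads per mock library.

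CASP4 (ENSG00000196954, chromosome 11, 104942866 to 104969436, minus strand) encodes caspase 4, the cytosolic lipopolysaccharide sensor, and lies in the same caspase cluster as CASP1, with CASP5 between them. It had 7.26, 5.83 and 6.51 FPKM in TRPV3 replicates 1 to 3, against 5.75, 5.73 and 4.92 FPKM in mock replicates 1 to 3. The groups did not overlap, with TRPV3 replicate 2 close to mock replicates 1 and 2. The log2 fold change was 0.22 (95% interval -0.02 to 0.46, SE 0.10, limma adjusted p = 0.755).

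Caspase 1 has near-identical copies of its recruitment domain beside it on chromosome 11, which limits how firmly its reads can be assigned. CARD16 (ENSG00000204397, 105041326 to 105101431, minus strand) and CARD17 (105092469 to 105101431, minus strand) encode inhibitors that carry this domain. The start of the coding sequence is shown for these genes and for CASP4, with bases that differ from CASP1 in capitals; in CARD16, 1 of the first 90 bases differs, in CARD17 6 and in CASP4 46.
CASP1: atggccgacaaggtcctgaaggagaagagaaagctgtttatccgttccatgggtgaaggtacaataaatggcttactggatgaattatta
CARD16: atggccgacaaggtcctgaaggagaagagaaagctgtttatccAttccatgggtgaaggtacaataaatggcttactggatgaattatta
CARD17: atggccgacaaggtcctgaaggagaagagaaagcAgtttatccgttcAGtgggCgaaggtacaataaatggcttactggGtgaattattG
CASP4: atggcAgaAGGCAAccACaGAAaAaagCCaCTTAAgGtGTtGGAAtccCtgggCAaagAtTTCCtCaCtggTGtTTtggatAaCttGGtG

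Of all stretches of 50 bases in the CARD16 coding sequence, 591 bases long, 20.3% occur unchanged in that of CASP1, and none of those of CARD17 or CASP4 do. CARD16 itself was at 2.48, 1.66 and 2.13 FPKM in TRPV3 replicates 1 to 3, against 2.13, 1.53 and 1.496 FPKM in mock replicates 1 to 3, so its groups overlapped (log2 fold change 0.18, limma adjusted p = 0.755, SE 0.14). Without TRPV3 replicate 1 the value was 0.09. CARD17 had at most 3 reads in a library, and so did CASP5, a close relative of CASP4. CASP5 had no read in any TRPV3 library and 2 reads over the mock libraries, all in mock replicate 3, so that a difference was not detectable at this depth.

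GSDMD (ENSG00000104518, chromosome 8, 143553207 to 143563062, plus strand), the pore-forming substrate, was at 28.0, 20.5 and 19.99 FPKM in TRPV3 replicates 1 to 3, against 19.99, 22.9 and 21.4 FPKM in mock replicates 1 to 3. As for IRF3 and PYCARD, the mean with TRPV3 was higher through TRPV3 replicate 1. The log2 fold change of 0.07 (95% interval -0.25 to 0.39, SE 0.14, limma adjusted p = 0.850) was -0.08 (95% interval -0.23 to 0.07) without that library.

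Set beside all genes tested, no member was called higher, where 0.0411% of tested genes were (5 of 12177), and no member was called lower, where 0% were. At an unadjusted limma p under 0.05, 3 of the 10 members were higher with TRPV3 (CGAS, IFI16 and CASP1), where 3.28% of tested genes were, and 0 were lower, where 1.21% were. All TRPV3 libraries lay above all mock libraries in 5 of the 10, where that held for 9.49% of tested genes, and below in 0, where it held for 5.39%. Under TPM scaling the cutoff of 1 was applied to TPM, so a larger set of 16032 genes was tested. Separation in that fit held for CGAS, TMEM173 and CASP1, so 3 of the 10, where it held for 4.28% of those genes. In the same fit 0 members lay wholly below, where 9.86% of those genes did. With the GC trend of each library removed the separation held for TMEM173, IFI16 and CASP1, so 3 of the 10, where it held for 8.43% of tested genes. There 1 member, TBK1, lay wholly below, where 7.28% did. The fold change was above 0 in 8 of the 10, where 53% of tested genes were above 0. Under TPM scaling it was above 0 in 7 of the 10, where 33.2% of the 16032 genes of that fit were. Under scaling to total reads it was above 0 in 8 of the 10, where 42.8% of 12187 genes were. The median log2 fold change of the members was 0.15, where that of all tested genes was 0.01. The members were chosen by name, with earlier results of these data known. These counts describe them and are not independent evidence of a direction.

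The count of members above 0 depended on TRPV3 replicate 1. Without it 5 of the 10 had a fold change above 0, the same 5 whose groups did not overlap, and the members' median was 0.03, where that of all tested genes was 0.01. Leaving out a library cannot make separated groups overlap. The separation of CGAS, TMEM173, IFI16, CASP1 and CASP4 was therefore bound to hold without TRPV3 replicate 1. In that fit 14% of tested genes had all TRPV3 libraries above all mock libraries and 10.1% had them below. An unadjusted p under 0.05 again fell to CGAS, IFI16 and CASP1, where 4.47% of tested genes were higher and 2.55% lower. No member was called by limma-voom on the recovered reads without that library either (lowest adjusted p = 0.484, for CGAS), where 0.542% of tested genes were called higher and 0.00821% lower.

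**Figure D2:**
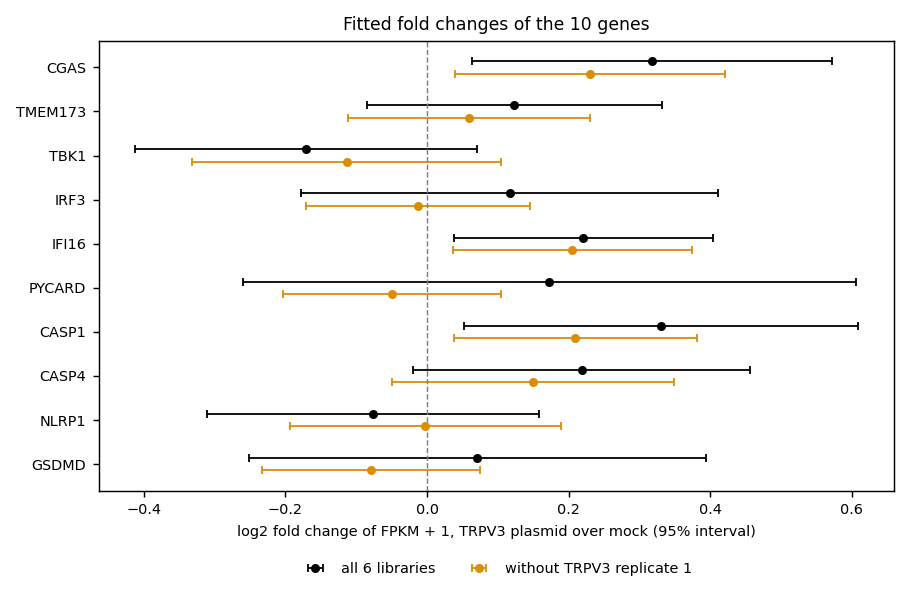
Fitted log2 fold change of FPKM + 1, TRPV3 plasmid over mock (horizontal axis), for each of the 10 genes with its 95% interval, unadjusted for the number of genes, from limma with all 6 libraries (black) and without TRPV3 replicate 1 (orange). The interval lies above 0 in both fits for CGAS, IFI16 and CASP1, and the points of IRF3, PYCARD and GSDMD lie above 0 with all libraries and below 0 when that library is left out.

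TRPV3 replicate 1 was the highest of the 6 libraries in 8 of the 10 genes and the lowest in the other two, TBK1 and NLRP1. Its deviation from the mean of the other TRPV3 libraries, on the log2(FPKM + 1) scale, was 0.67 for PYCARD, 0.45 for GSDMD, 0.39 for IRF3 and 0.36 for CASP1, and it was -0.17 for TBK1 and -0.22 for NLRP1. The 3 genes that were high in this library alone have the transcripts richest in GC among the 10: 64.8% for GSDMD, 61.7% for PYCARD and 59.0% for IRF3, where the median of all tested genes was 48.4%. Other members did not follow GC content: CASP1 deviated by 0.36 at 41.0% GC, TMEM173 by 0.19 at 56.8% and NLRP1 by -0.22 at 55.1%. Across the 10 genes the deviation had a Spearman's rho of 0.61 with GC content and -0.66 with length, a description over 10 points that share the same libraries. Across all tested genes the rho with GC content was 0.26 for TRPV3 replicate 1. In the other libraries it lay between -0.34 (mock replicate 1) and 0.41 (mock replicate 3), so a trend with GC was not particular to TRPV3 replicate 1. The part of these properties in the result was not tested beyond the fits with a trend removed. With the length trend removed from each library, the fold changes of PYCARD, IRF3 and GSDMD were 0.04, 0.07 and 0.07, that of TMEM173 was 0.08, and those of CGAS, IFI16, CASP1 and CASP4 were 0.28, 0.22, 0.28 and 0.27. With the GC trend removed instead, the fold changes of PYCARD, IRF3 and GSDMD were 0.15, 0.10 and 0.04, where they were 0.17, 0.12 and 0.07 with no trend removed.

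**Figure D3:**
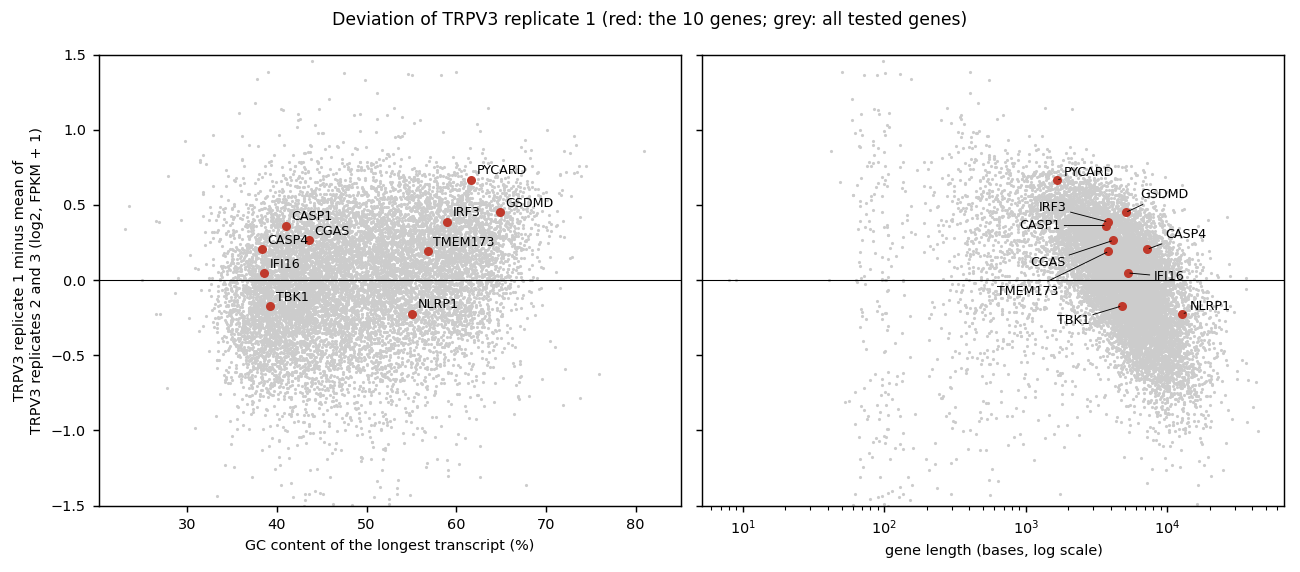
Difference between TRPV3 replicate 1 and the mean of TRPV3 replicates 2 and 3 on the log2(FPKM + 1) scale (vertical axes), against the GC content of the longest transcript in % (left) and the gene length in bases on a log axis (right), for the 12177 tested genes (grey) and the 10 genes (red); 29 genes lie beyond the vertical limits. PYCARD, GSDMD and IRF3 are high and rich in GC, and NLRP1, the longest of the 10 genes, is the lowest.

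On the FPKM scale, which divides by gene length, the order of mean levels in the mock libraries was IRF3 (21.5), GSDMD (21.5), PYCARD (11.8), CGAS (7.73), TBK1 (6.15), CASP4 (5.47), IFI16 (4.59), CASP1 (2.81), NLRP1 (2.64) and TMEM173 (2.45). The mock libraries of neighbours in this order overlapped for IRF3 and GSDMD, for TBK1 and CASP4, and for CASP1 and NLRP1, and for no other pair of neighbours. The receptor STING and the sensor NLRP1 had lower transcript levels than the adapter, the transcription factor and the pore-forming protein that act after them. This order did not hold throughout: CASP1, which acts after NLRP1, overlapped it, and CGAS, which acts first, lay above TMEM173 and TBK1.

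The promoters shown are those of the members that the RefSeq promoter table holds. It matched 4 of the 10 members, with a pair of starts for IFI16. CASP4 and IFI16 are among the genes whose groups did not overlap, while TBK1 and PYCARD are not. CGAS, TMEM173 and CASP1, whose groups did not overlap either, had no window there. A link between promoter sequence and the fold changes was not tested. Each window runs from 250 bases before to 50 bases after the start (GRCh38.p14, on the strand of the gene, 5′ to 3′), and capitals mark CG dinucleotides. The windows are chr11:104968525-104968824 on the minus strand for CASP4, chr1:159008741-159009040 and chr1:159009657-159009956 on the plus strand for IFI16, chr12:64451870-64452169 on the plus strand for TBK1, and chr16:31202711-31203010 on the minus strand for PYCARD.
CASP4: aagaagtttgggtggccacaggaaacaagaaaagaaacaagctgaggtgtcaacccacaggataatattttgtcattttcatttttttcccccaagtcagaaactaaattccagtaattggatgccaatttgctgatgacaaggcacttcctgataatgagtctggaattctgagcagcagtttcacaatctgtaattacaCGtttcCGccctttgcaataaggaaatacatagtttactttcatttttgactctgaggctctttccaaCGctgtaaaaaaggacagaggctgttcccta
IFI16, upstream start: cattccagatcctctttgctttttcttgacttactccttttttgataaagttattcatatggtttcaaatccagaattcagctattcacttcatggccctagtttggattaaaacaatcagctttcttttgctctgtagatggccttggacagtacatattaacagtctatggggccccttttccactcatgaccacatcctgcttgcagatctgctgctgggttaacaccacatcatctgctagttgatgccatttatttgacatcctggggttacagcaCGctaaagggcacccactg
IFI16, downstream start: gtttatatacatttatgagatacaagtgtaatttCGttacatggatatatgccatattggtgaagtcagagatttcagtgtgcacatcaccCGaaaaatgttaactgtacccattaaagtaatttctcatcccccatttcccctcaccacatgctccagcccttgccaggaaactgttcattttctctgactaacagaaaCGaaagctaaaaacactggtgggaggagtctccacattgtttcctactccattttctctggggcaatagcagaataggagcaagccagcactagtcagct
TBK1: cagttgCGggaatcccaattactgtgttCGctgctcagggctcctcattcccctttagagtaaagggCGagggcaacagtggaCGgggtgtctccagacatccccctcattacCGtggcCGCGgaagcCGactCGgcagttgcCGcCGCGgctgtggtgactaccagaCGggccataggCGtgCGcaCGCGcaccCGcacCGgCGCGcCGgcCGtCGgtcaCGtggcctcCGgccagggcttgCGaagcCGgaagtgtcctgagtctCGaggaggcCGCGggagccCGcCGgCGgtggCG
PYCARD: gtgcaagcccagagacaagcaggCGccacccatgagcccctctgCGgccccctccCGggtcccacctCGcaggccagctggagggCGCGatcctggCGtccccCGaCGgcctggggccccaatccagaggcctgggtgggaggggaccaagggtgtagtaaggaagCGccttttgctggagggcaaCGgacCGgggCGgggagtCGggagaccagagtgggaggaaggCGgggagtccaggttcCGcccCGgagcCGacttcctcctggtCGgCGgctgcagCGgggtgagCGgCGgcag

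The CASP4 window holds 3 CG dinucleotides and is 39.7% GC, and the IFI16 windows hold 1 and 3 and are 42.3% and 41.7% GC. The TBK1 window holds 35 and is 68.3% GC, and the PYCARD window holds 23 and is 72.0% GC. The median over 35116 promoter windows of this length was 14 CG dinucleotides. Motifs were searched on both strands. The core of the interferon-stimulated response element, GAAANNGAA, was found in 8.11% of all promoter windows and in 1 of these 5, that of the downstream IFI16 start, on the strand opposite the gene. With 1 more A at its end the motif was found in 3.57% of all windows and in none of these 5. The gamma-activated site TTCNNNGAA (7.66% of all windows), the general kappa-B site (11.3%) and the AP-1 site TGACTCA (4.95%) had no match here. The GAA of the gamma-activated site can be shared with a response element. A match describes letters and shows no bound site. No match says only that these letters are not in these windows.

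Around the DNA-sensing members, no other gene of the relay was called, where 0.0411% of tested genes were called higher and 0% lower. The same shares stand beside the counts of called genes in the lists below. Of 18 adapters, kinases and ubiquitin ligases of the cGAS to TBK1 relay 17 were measured and 0 were called in either direction, with a median log2 fold change of -0.03. All TRPV3 libraries lay above all mock libraries in 3 of the 17 and below in 2, where that held for 9.49% and 5.39% of tested genes. SURF4, which escorts STING from the Golgi to the endoplasmic reticulum, was at 86.6 ± 0.716 FPKM with TRPV3 and 82.2 ± 1.74 FPKM with mock, and RNF5, a ubiquitin ligase of STING, at 33.4 ± 6.77 FPKM with TRPV3 and 29.4 ± 0.541 FPKM with mock (SD, n = 3 each). Of 15 genes that clear, shield or transport DNA and cGAMP 11 were measured and 0 were called, with a median of 0.01. BANF1, which coats DNA at the nuclear envelope, was at 152 ± 28.0 FPKM with TRPV3 and 136 ± 9.92 FPKM with mock, and LRRC8A, a channel subunit that carries cGAMP, at 107 ± 14.7 FPKM with TRPV3 and 107 ± 6.02 FPKM with mock (SD, n = 3 each). TREX1, the main exonuclease of cytosolic DNA, was listed with 0 reads in all 6 libraries. All 1515 of its exonic bases are also exons of ATRIP on the same strand, which had 207 to 311 reads per library, so a level of TREX1 could not be read from this table.

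Of 16 other proteins reported to sense DNA 12 were measured, with 0 called and a median log2 fold change of 0.01. The most abundant were XRCC6 and XRCC5, which encode the Ku subunits that bind DNA ends, at 260.5 ± 38.6 and 113 ± 1.64 FPKM with TRPV3 and 236 ± 10.6 and 109 ± 4.76 FPKM with mock (SD, n = 3 each). AIM2, the inflammasome-forming DNA sensor and a relative of IFI16, had at most 2 reads in any library, with 2 reads over the TRPV3 libraries and 2 over the mock libraries. Of the PYHIN family of DNA sensors, IFI16 was the only one measured: PYHIN1 and MNDA also lay under the filter, and MNDA had no read in any TRPV3 library.

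The genes downstream of IRF3 are described next. Of 18 interferon genes and genes known to be activated by IRF3, 9 were measured, all 9 had a fold change above 0 (53% of tested genes), and 8 had all TRPV3 libraries above all mock libraries (9.49% of tested genes), but 0 were called over all genes. The median log2 fold change was 0.56 with all libraries and 0.51 without TRPV3 replicate 1. By limma-voom without that library 7 of the 9 were called higher, where 0.542% of tested genes were. Interferon-stimulated genes were known to be high in these TRPV3 libraries when the list was drawn up, so this list is not independent evidence of a direction.

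ISG15, a ubiquitin-like protein induced by interferon, was at 111, 73.6 and 64.9 FPKM in TRPV3 replicates 1 to 3, against 41.8, 47.7 and 48.4 FPKM in mock replicates 1 to 3. IFIT3, an antiviral RNA-binding complex member, was at 9.06, 10.3 and 9.61 FPKM in TRPV3 replicates 1 to 3, against 6.90, 6.77 and 6.69 FPKM in mock replicates 1 to 3 (log2 fold change 0.45, limma adjusted p = 0.279, SE 0.07). Neither group pair overlapped, and ISG15 was the one with TRPV3 replicate 1 far above the others. The log2 fold change of ISG15 was 0.80 (limma adjusted p = 0.652, SE 0.19), and 0.58 (SE 0.08) without TRPV3 replicate 1. Named after their values were seen, DDX58, which encodes the RNA sensor RIG-I, had a log2 fold change of 0.36 (SE 0.12) and IFIH1, which encodes the RNA sensor MDA5, 0.20 (SE 0.08). IRF1, another interferon regulatory factor, had 0.12 (SE 0.08), or 0.07 without TRPV3 replicate 1, and its groups overlapped.

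**Figure D4:**
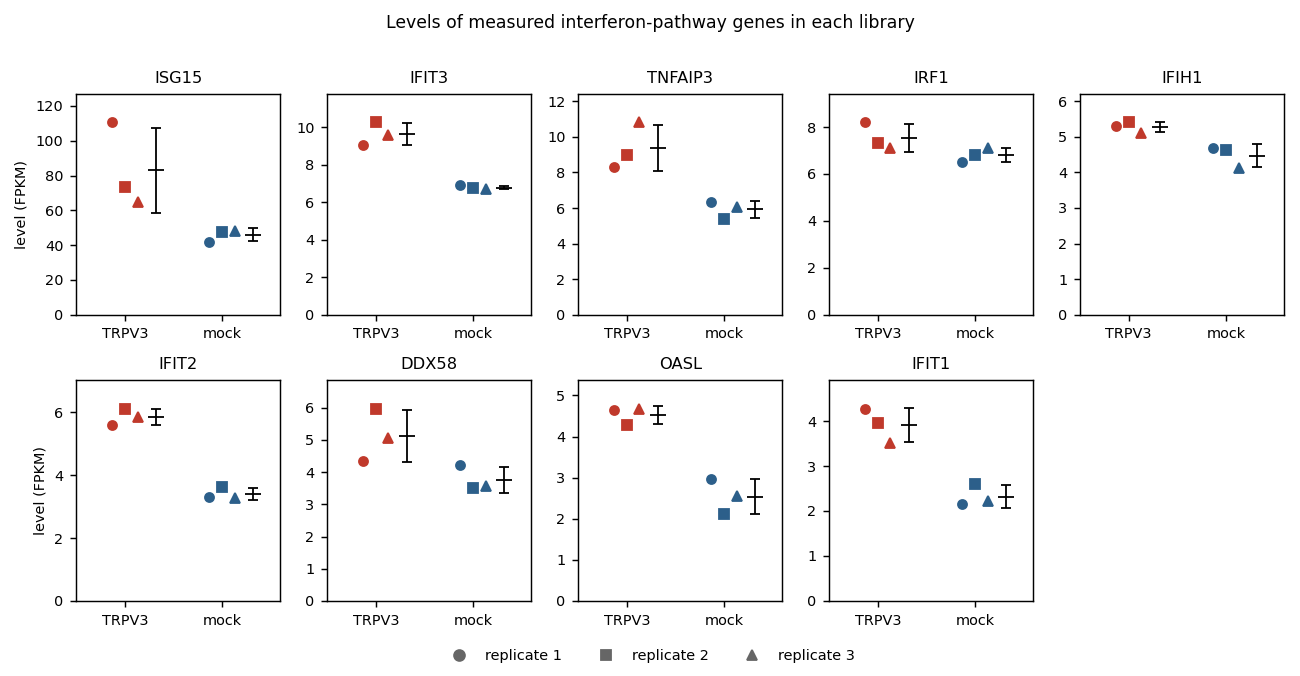
Level in FPKM (vertical axes, from 0) of the 9 measured genes of the interferon and IRF3 target list in the 3 TRPV3 libraries (red, left) and the 3 mock libraries (blue, right), with replicate numbers as shapes and the mean and SD in black. The groups overlap only for IRF1.

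The interferon genes themselves lay under the filter and are given as reads. IFNB1, which encodes interferon beta, had 4 reads over the TRPV3 libraries and 1 over the mock libraries, so that a difference was not detectable at this depth. IFNL1, an interferon lambda gene named after its values were seen, had 5 to 12 reads per TRPV3 library, 26 in all, and none in any mock library. With 3 reads allowed over the mock group, the pooled reads of IFNL1, scaled by the library divisors, gave a ratio of 8.5, TRPV3 over mock. That ratio takes the 26 TRPV3 reads as exact, so it leaves out their counting error and the spread between libraries. The fitted log2 fold change of IFNL1 without the filter was not called (limma adjusted p = 0.733). IFNL2 and IFNL3, whose sequences are close to each other, had 15 and 11 reads over the TRPV3 libraries and 2 and 1 over the mock libraries. IFNE had 5 reads over the TRPV3 libraries and 11 over the mock libraries, and IFNK had no read in any library.

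Around the inflammasome members, most sensors were under the filter. Of 18 other sensors and regulators 8 were measured, with 0 called and a median log2 fold change of -0.06. The most abundant were TXNIP, a binding partner of thioredoxin and NLRP3, at 45.8 ± 2.15 FPKM with TRPV3 and 35.3 ± 3.20 FPKM with mock, and NLRP2, an NLR-family protein, at 25.3 ± 0.722 FPKM with TRPV3 and 26.0 ± 1.38 FPKM with mock (SD, n = 3 each). TXNIP had a log2 fold change of 0.37 (limma adjusted p = 0.681, SE 0.09) and was called by limma-voom without TRPV3 replicate 1 (adjusted p = 0.00951). NLRP3, the best-studied inflammasome sensor of macrophages, was at 0.465, 0.646 and 0.469 FPKM in TRPV3 replicates 1 to 3, against 0.287, 0.194 and 0.3 FPKM in mock replicates 1 to 3. Its groups did not overlap, with 39 to 55 reads per TRPV3 library and 15 to 26 per mock library, but without the filter it was not called (limma adjusted p = 0.733). CARD8, a sensor held in check like NLRP1 by the peptidases DPP8 and DPP9, was at 0.693 ± 0.0646 FPKM with TRPV3 and 0.692 ± 0.0411 FPKM with mock (SD, n = 3 each).

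Of 12 caspase relatives and inhibitors 6 were measured, with 0 called and a median log2 fold change of 0.07. SERPINB1, an inhibitor of the inflammatory caspases, was at 37.5 ± 3.42 FPKM with TRPV3 and 32.2 ± 1.67 FPKM with mock, and SERPINB9, a granzyme B inhibitor, at 8.52 ± 1.03 FPKM with TRPV3 and 8.75 ± 1.09 FPKM with mock (SD, n = 3 each). Of 13 other gasdermins and genes of membrane rupture and repair 12 were measured, with 0 called and a median of 0.07. GSDME, the gasdermin cut by caspase 3, was at 2.85 ± 0.215 FPKM with TRPV3 and 2.72 ± 0.0624 FPKM with mock. CHMP4B and CHMP2A, subunits of the ESCRT machinery that repairs membranes, were at 164 ± 29.05 and 30.7 ± 8.98 FPKM with TRPV3 and 138 ± 7.67 and 23.4 ± 1.61 FPKM with mock (SD, n = 3 each), both with their highest level in TRPV3 replicate 1.

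Of 13 inflammasome substrates and guanylate-binding proteins 8 were measured, with 0 called and a median log2 fold change of 0.11. IL18, a cytokine matured by caspase 1, was at 33.7, 21.7 and 22.2 FPKM in TRPV3 replicates 1 to 3, against 19.6, 19.5 and 18.8 FPKM in mock replicates 1 to 3, and its groups did not overlap. Its log2 fold change of 0.38 (limma adjusted p = 0.755, SE 0.16) was 0.18 without TRPV3 replicate 1. IL1RN, the antagonist of the interleukin 1 receptor, had 0.11 (SE 0.09), and 0.03 without TRPV3 replicate 1. IL1B, the other main substrate of caspase 1, lay under the filter at 24 to 46 reads per TRPV3 library and 18 to 32 reads per mock library, and its groups overlapped.

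**Figure D5:**
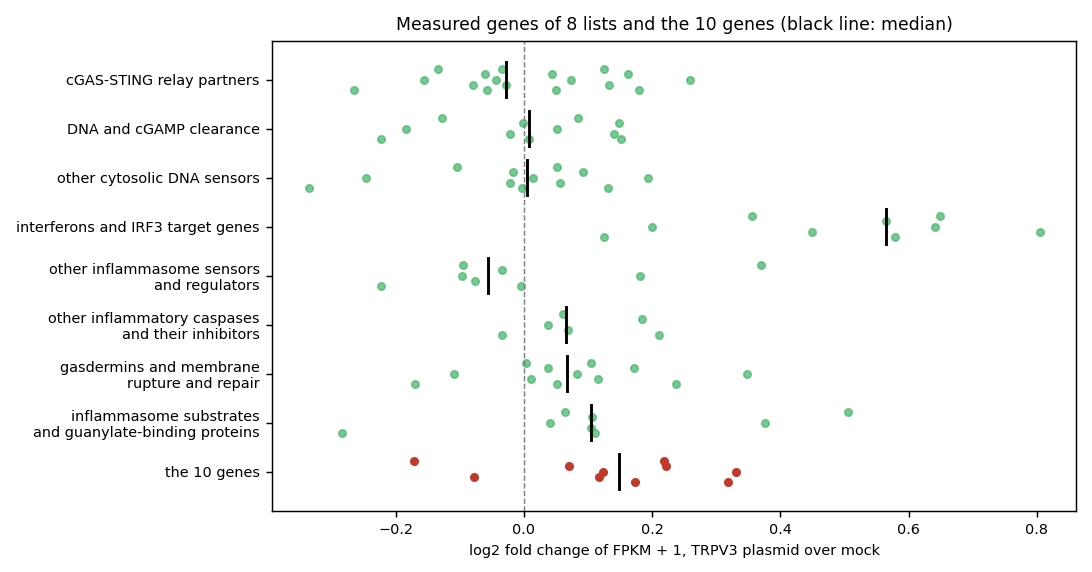
Fitted log2 fold change of FPKM + 1, TRPV3 plasmid over mock (horizontal axis), of each measured gene in the 8 lists (green) and of the 10 genes (red), with the median of each row in black; vertical scatter within a row only separates points. Medians run between -0.06 and 0.56, and the largest value among the lists is that of ISG15, at 0.80. Without TRPV3 replicate 1 (not drawn) ISG15 was at 0.58, below IFIT2 at 0.67.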

How the data were processed

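RNA of SZ95 cells with a TRPV3 plasmid (3 libraries) or a mock plasmid (3 libraries) was sequenced. Per the labels' protocols, TRIzol was used for RNA and NEBNext Ultra chemistry for the libraries. HISAT2 2.0.5 and hg38 are named in the submitters' processing notes. The counting tool, and whether it used strand, were not stated in any source used here. Per the file headers the authors deposited FPKM, with coordinates and lengths equal to GENCODE 29 for all 58735 genes. FPKM times gene length was a whole multiple of 1 step per library for 100% of the values checked (tolerance 0.02 reads), so reads were recovered. Values with the most reads were left out of that check. A count of 0 reads allows up to 3 reads, or 0.165 to 0.185 FPKM for a gene of 1 kb, which covers counting error only.

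The 12177 genes averaging 1 FPKM or more entered limma 3.58.1 (R 4.3.3) on log2(FPKM + 1) with its trend option and Benjamini-Hochberg adjusted p-values, all 6 libraries and group as the only term. The code was tested on simulated data. No p was adjusted over the members and no test of a list was made. The members, the 8 pathway lists (123 genes) and the 3 marker lists were chosen with earlier results of these data known. Named from each list were called genes, of which there were none, and the 2 genes of highest mean FPKM, with AIM2, NLRP3, CARD8, CASP5, CARD16, TREX1, IFNB1, IL1B, IL18 and GSDME in any case and genes whose exons overlap those of a member. PYHIN1, MNDA, CARD17, IFNL2, IFNL3, IFNE, IFNK, IFIT2 and the genes so marked in the text were picked with their values in view. So were the promoter motifs and the caspase sequences. GC content is that of the longest GENCODE 29 transcript of a gene. Python 3.11.15 with matplotlib 3.10.9 made the figures.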

Additional observations from a re-analysis of the deposited data

How the results depend on the processing

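No member was called in any of the 16 planned or 3 added alternatives, the lowest adjusted p from limma being 0.2201 (CGAS). The added ones, chosen after seeing the data, were limma-voom on recovered reads without TRPV3 replicate 1, removal of a GC trend, and leaving out TRPV3 replicate 1 and mock replicate 3 together. A count test by quasi-likelihood was not run, since the deposited unit is FPKM.

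Genes called higher and lower numbered 5 and 0 in the reported fit, 5 and 1 with a pseudocount of 0.1, 2 and 0 without a filter, 3 and 0 with a filter of 5 FPKM, 66 and 1 with voom without TRPV3 replicate 1, and 8 and 1 without that library and mock replicate 3; leaving out 1 library gave 2 to 8 higher and 0 to 1 lower. Under a filter of 5 FPKM 7 members were measured. Members with all TRPV3 libraries above all mock libraries numbered 5 in the reported fit, 3 with a filter of 5 FPKM, 3 under TPM scaling (CGAS, TMEM173 and CASP1) and 3 with the GC trend removed (TMEM173, IFI16 and CASP1). The number was also 5 each time 1 library was left out, but leaving out a library cannot make separated groups overlap. Members wholly below numbered 0, but 1, TBK1, under quantile normalization and with the GC trend removed, and 0 to 2 when 1 library was left out. Members with a fold change above 0 numbered 8 in the reported fit, 5 with voom without TRPV3 replicate 1, and 5 to 8 when 1 library was left out. Genes of the 8 lists called higher numbered 0 in the reported fit, 8 with voom without TRPV3 replicate 1, 1 without that library and mock replicate 3, and 0 to 1 when 1 library was left out.

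Directions turned for 4 members. Without TRPV3 replicate 1 the log2 fold change was -0.0126 for IRF3, -0.0496 for PYCARD and -0.0793 for GSDMD, and leaving out 1 library at a time took it up to 0.194, 0.289 and 0.154 for IRF3, PYCARD and GSDMD. With voom without that library it was -0.0140 for IRF3, -0.0552 for PYCARD and -0.0820 for GSDMD, and without that library and mock replicate 3 it was -0.00108 for PYCARD and -0.0787 for GSDMD. GSDMD was at -0.0237 under TPM scaling, and NLRP1 at 0.0401 with the length trend removed. The cause was not tested. CGAS, TMEM173, IFI16, CASP1 and CASP4 stayed above 0, and TBK1 below, in all alternatives in which they were measured.

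With the replicate number as a block, 2 genes were called higher and 1 lower, and 0 members. Deviations of libraries with the same number had correlations of -0.27, -0.04 and -0.17 across genes, so no pairing by number was seen. Each deviation was taken from the mean of its own group, so these values cannot show that the libraries were unpaired.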
